A study of Mus musculus with 6 samples.

Results

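Chemokine receptors steer leukocytes through tissue, and 9 of their genes were followed here in lungs of mice that lacked part of Zpbp2. The members were chosen by symbol among the 47069 genes of the count table, and all 9 were found and had enough reads to be tested. They comprised 7 signalling receptors (Ccr1, Ccr3, Ccr6, Ccr9, Cxcr3, Cxcr4 and Cxcr6) and 2 atypical receptors (Ackr1 and Ackr3). The rule left aside Ccr2 and Cx3cr1, the pair carried by monocytes. It named genes by symbol alone, but the members were chosen with earlier results of these data known.

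The RNA came from whole lungs of adult mice taken at ZT10, which is 10 h after the lights came on. The WT group held 3 C57BL/6J mice (WT4, WT5 and WT6) bred in the colony of the mutants. The KO group held 3 Zpbp2 KO mice (KO4, KO5 and KO6), listed as strain C57BL/6J, of the line B6.129S7-Zpbp2tmZuk/Mmjax, whose deletion takes away the 5′ exons of Zpbp2 in the germline, so that no cell type is spared. Values per mouse are given in the order WT4, WT5, WT6 and KO4, KO5, KO6 throughout. Each library was made from 1 mouse, no treatment is listed, and the sex of single mice was not given in the sources used here.

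A chemokine is a small secreted protein that binds receptors with 7 transmembrane segments on the surface of a target cell. Signalling receptors pass the contact to Gi proteins, phosphoinositide 3-kinase gamma and Rac, and the cell moves up the gradient. Atypical receptors bind chemokines without engaging G proteins, and they take up, transport or remove the ligand. In the lung the signalling receptors sit mainly on leukocytes, whereas Ackr1 is known from venular endothelium and red cells and Ackr3 from endothelial and stromal cells.

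Read counts per library ranged from 19981428 (KO6) to 46796908 (KO5), and 3 counts, taken as the floor of detection, corresponded to 0.0641 to 0.150 CPM (counts scaled to a common library size). KO5 stood apart from the other KO libraries: the chi-square per degree of freedom between replicates was 29.8 and 29.5 for the pairs that held KO5 and 11.4 for KO4 with KO6. This measure used raw counts and grows with depth, so the depth of KO5 may account for part of the difference. Among WT mice it was 16.8 and 14.5 for the pairs that held WT6, the deepest WT library, and 8.89 for WT4 with WT5. Zpbp2 had 1, 2 and 2 counts in the WT mice and 0 in each KO mouse, so at this depth its counts could not check the genotype. All libraries carried Xist (715 to 994 CPM), the RNA of the inactive X chromosome. The Y-linked genes Ddx3y, Eif2s3y, Kdm5d and Uty had at most 1 count in 5 of the libraries and 9, 2, 7 and 6 counts in KO5. Genes of lung epithelium and endothelium (Scgb1a1, Sftpc, Pecam1 and Cdh5) were abundant in each of the 6 libraries.

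The receptor genes lie on 4 chromosomes. In GRCm38, Ccr9 (ENSMUSG00000029530), Cxcr6 (ENSMUSG00000048521), Ccr1 (ENSMUSG00000025804) and Ccr3 (ENSMUSG00000035448) share a stretch of 353 kb on chromosome 9, and 70.3 kb separate the end of Ccr3 from Ccr2. Cxcr4 (ENSMUSG00000045382), Ackr1 (ENSMUSG00000037872) and Ackr3 (ENSMUSG00000044337) are on chromosome 1, Ccr6 (ENSMUSG00000040899) is on chromosome 17 and Cxcr3 (ENSMUSG00000050232) is on the X chromosome. Of the 1405 exonic bases of Ackr1, 361 also belong to Cadm3 on the same strand. Of the 10260 exonic bases of Ccr9, 2201 are shared with Slc6a20a, Gm17200 and AC165425.1, so the counts of these 2 receptors are less certain.

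The bases just before 4 of the receptor genes are printed because their RNA carried the main contrasts: Cxcr4 and Ackr3 bind the same ligand and had fold changes of opposite sign, Cxcr3 passed the test, and Ccr6 had the largest fitted change. Each stretch holds 120 bases outside annotated exons, read 5′ to 3′ on the strand of the gene from RefSeq for GRCm38.p6, and capitals mark matches to the searched motifs.
Cxcr4, chr1:128592300-128592419, minus strand: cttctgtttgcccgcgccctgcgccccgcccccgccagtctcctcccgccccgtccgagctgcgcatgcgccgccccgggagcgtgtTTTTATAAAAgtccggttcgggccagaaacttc
Ackr3, chr1:90203860-90203979, plus strand: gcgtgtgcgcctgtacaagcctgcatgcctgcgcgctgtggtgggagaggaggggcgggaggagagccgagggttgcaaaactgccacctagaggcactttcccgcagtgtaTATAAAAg
Cxcr3, chrX:101734270-101734389, minus strand: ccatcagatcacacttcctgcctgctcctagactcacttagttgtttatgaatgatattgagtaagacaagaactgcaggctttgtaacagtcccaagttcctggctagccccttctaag
Ccr6, chr17:8235923-8236042, plus strand: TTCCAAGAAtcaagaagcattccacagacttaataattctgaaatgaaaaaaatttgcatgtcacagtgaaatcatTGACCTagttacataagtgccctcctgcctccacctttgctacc

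The stretches of Cxcr4 and Ackr3 were rich in CG dinucleotides (15 and 7), while those of Cxcr3 and Ccr6 held 0. Over the full windows of 300 bases (10 windows, since Ccr6 has 2), the TATA box letters TATAAAA occurred before Cxcr4 and Ackr3, and 5.48% of all 32851 RefSeq windows hold them on either strand. In Cxcr4 the match lay at -30 to -24 from the start, with a second match on the other strand that overlapped it (-33 to -27). In Ackr3 it lay at -8 to -2. The gamma-activated site (TTCNNNGAA, in 8.3% of windows) occurred at -157 and at -120 before Ccr6, and the nuclear receptor half-site (AGGTCA, in 16.3%) at -44 on the opposite strand. The E-box of clock factors (CACGTG, which contains the hypoxia core ACGTG) is found in 7.15% of windows and had no match in the windows of the 9 receptors. The hypoxia core (in 19.6%) matched in the second window of Ccr6, and a half-site before Ackr1 fell within an annotated exon. These matches are descriptions of letters and were not tested for binding.

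Cxcr4 and Ackr3 were by far the most abundant of the 9 RNAs. Per length of the principal transcript, Cxcr4 averaged 21.8 RPKM (CPM divided by the length in kilobases) in WT mice and Ackr3 15.8. Cxcr6 (3.88), Ccr1 (2.71), Cxcr3 (2.05) and Ccr6 (1.34) followed, and Ackr1 (0.393), Ccr3 (0.312) and Ccr9 (0.310) were lowest. The WT mice did not separate Cxcr3 from Ccr6, Ackr1 from Ccr3 or Ccr3 from Ccr9, whose ranges overlapped, while each other pair of neighbours in this order was separated. In KO mice Cxcr4 (29.3 RPKM) and Ackr3 (11.9 RPKM) stayed first and second, whereas Ccr6 (4.46 RPKM) came to lie between Cxcr6 (4.91 RPKM) and Cxcr3 (4.24 RPKM) with overlapping ranges.

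**Figure D1:**
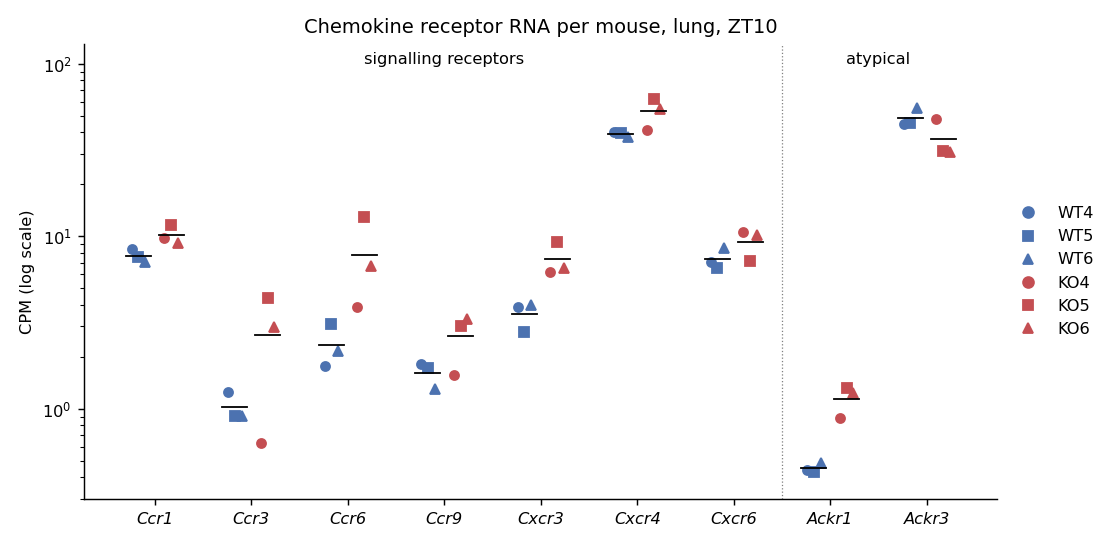
RNA level of each receptor in CPM (log scale), 1 point per mouse, WT in blue and KO in red, with a bar at the mean of each group. The points of KO lie above those of WT without overlap for Ccr1, Ccr6, Cxcr3, Cxcr4 and Ackr1, and 2 of the 3 KO mice lie below the WT mice for Ackr3.

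Of the 9 receptors, Cxcr3 and Ackr1 were higher in KO mice at a Benjamini-Hochberg adjusted p of at most 0.05, from the quasi-likelihood test of edgeR over 17037 genes, and 0 were lower. At an unadjusted p under 0.05 the counts were 7 higher and 0 lower, a threshold that 25.5% of all genes tested passed (13.9% higher and 11.6% lower), and DESeq2 called 3 higher and 0 lower (11.2% of all genes in either direction). In edgeR's quasi-likelihood test, 6.39% of all genes tested passed the threshold, 3.72% as higher and 2.67% as lower. The count amounted to 1 of 7 signalling and 1 of 2 atypical receptors, and with so few members the shares were not compared. Fitted log2 fold changes were positive for the 7 signalling receptors, with a median of 0.72, and their medians were 1.07 for the CC and 0.43 for the CXC receptors, where the median of all genes tested was 0.00. None of the 9 combined an adjusted p of at most 0.05 with a log2 fold change of at least 1.5 in size, which 0.64% of genes did. In 5 receptors the 3 KO values lay wholly above the 3 WT values, against 17% of all genes tested (32.6% in either direction). For these 5 the two-sided exact permutation test gave p = 0.1, the smallest that 3 mice against 3 allow, so that none of the 9 such tests could pass 0.05. The p-values set the difference between the groups against the variation between libraries, which holds counting noise as well as differences between single mice. In RNA from whole lung a change in the number of cells of a type cannot be told apart from a change in RNA per cell.

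**Figure D2:**
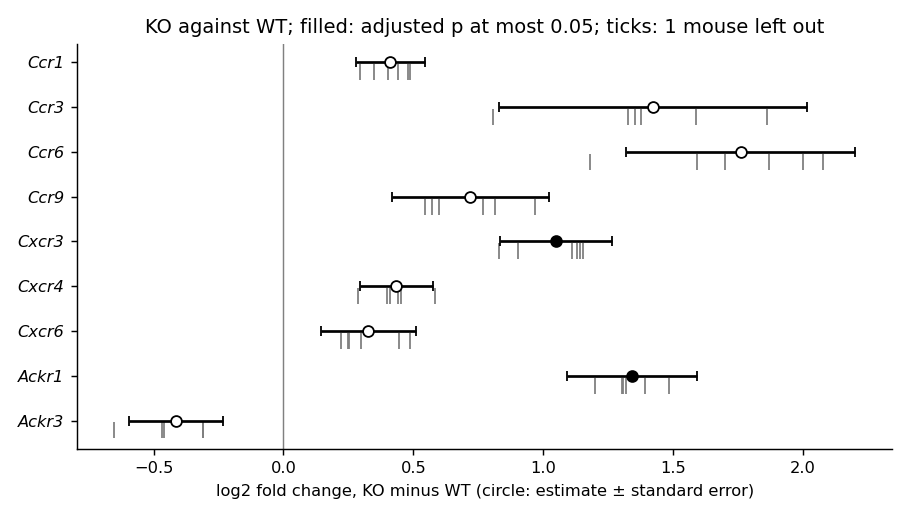
Fitted log2 fold change of KO against WT for each receptor (circle), with its standard error (bar), filled where the adjusted p was at most 0.05, and with a grey tick for each fit that left out 1 mouse. Cxcr3 and Ackr1 are filled, and Ackr3 alone lies left of 0 in each fit shown.

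Cxcr3, the receptor of activated T cells and natural killer cells for Cxcl9, Cxcl10 and Cxcl11, was the signalling receptor that passed the test. It had 96, 58 and 124 counts in WT and 127, 443 and 132 counts in KO mice, or 3.86, 2.78 and 4.01 CPM against 6.21, 9.29 and 6.52 CPM. Each KO mouse lay above each WT mouse, with KO5 highest. The mean was 3.55 ± 0.673 CPM (SD, n = 3) in the WT group and 7.34 ± 1.70 CPM (SD, n = 3) in the KO group. KO mice exceeded WT mice by 1.05 on the log2 scale (standard error 0.217, adjusted p = 0.0390 in edgeR's quasi-likelihood test). Without KO4 the adjusted p was 0.0397, and without any 1 of the other 5 mice it lay above 0.05, at 0.0534 without KO5 with a log2 fold change of 0.83.

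The 10 T cell genes that were followed (Cd3d, Cd3e, Cd3g, Cd4, Cd8a, Cd8b1, Lck, Cd5, Cd6 and Cd28) summed to 53.1 to 60.2 CPM in WT mice, against 60.5, 162 and 87.2 CPM in the KO mice. None of the 10 passed the test in edgeR's quasi-likelihood fit, in which 8 were higher at an unadjusted p under 0.05 (13.9% of all genes). Of the 10, edgeR's exact test called 3 (8.62% of all genes in either direction) and DESeq2 6 (11.2%). Their median log2 fold change was 0.91 with all 10 positive, and without KO5 it was 0.52 with 8 positive and 2 negative. Without KO4, 6 of the 10 passed (7.3% of all genes), and 0 passed in each other fit that left out 1 mouse. In KO4, whose T cell sum was within 1 CPM of the highest WT sum, Cxcr3 equalled 10.3% of that sum, against 5.23% to 7.20% in WT mice. In KO5 and KO6 the share was 5.72% and 7.47%. Relative to 8 natural killer cell genes, Cxcr3 equalled 7.92% to 8.76% of the sum in WT mice, against 10.6%, 14.3% and 8.66% in the KO mice. In that list Klrk1 and Ncr1 were higher in KO mice (log2 fold changes 0.82 and 0.79, adjusted p = 0.0171 and 0.0450 in edgeR's quasi-likelihood test). The part of T cells and natural killer cells in the Cxcr3 result was not tested.

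The 3 ligands of Cxcr3 are induced by interferon. Cxcl9 read 0.765, 1.82 and 3.33 CPM in WT and 5.57, 9.78 and 9.33 CPM in KO mice. The groups did not overlap, and the log2 fold change of 2.04 (standard error 0.474) missed the threshold in edgeR's quasi-likelihood test (adjusted p = 0.0505). Cxcl9 passed it in edgeR's exact test (adjusted p = 0.00173), in DESeq2 (9.99e-05), under either other filter and without KO4. Cxcl10 likewise had non-overlapping groups, with 1.33 to 3.17 CPM in WT and 3.91 to 5.83 CPM in KO mice and a log2 difference of 1.21 (standard error 0.342, adjusted p = 0.0812 in the quasi-likelihood test), and it passed in edgeR's exact test (0.0211), in DESeq2 (0.0131) and with no filter (0.0474). Cxcl11 had at most 2 counts in any library and was not tested.

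Cxcr6, which binds the membrane-bound chemokine Cxcl16 and is typical of T cells that stay in tissue, was the CXC receptor with the smallest change. It read 7.09, 6.52 and 8.51 CPM in WT and 10.6, 7.15 and 10.2 CPM in KO mice. The groups overlapped through KO5, the KO library with the most T cell RNA. Its log2 fold change was 0.33 (standard error 0.184, adjusted p = 0.313 in edgeR's quasi-likelihood test). Cxcr6 equalled 4.40% of the T cell sum in KO5 and 11.7% to 17.4% in the other 5 mice. The ratio of Cxcr3 to Cxcr6, on the CPM scale, was 0.426 to 0.545 in WT mice, against 0.588, 1.30 and 0.638 in the KO mice. Cxcl16 itself differed by -0.03 on the log2 scale (adjusted p = 0.857 in the same test), at 57.0 to 68.9 CPM over the 6 mice.

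Cxcr4 is the widely expressed receptor for Cxcl12, which holds leukocytes and progenitors in marrow and tissue, and Ackr3 removes Cxcl12 from the surroundings of the cell. Cxcr4 had 40.4, 39.8 and 37.6 CPM in WT and 41.2, 62.7 and 54.8 CPM in KO mice. Its groups did not overlap, although KO4 exceeded WT4 by less than 1 CPM. The mean was 39.3 ± 1.48 CPM (SD, n = 3) in the WT group and 52.9 ± 10.9 CPM (SD, n = 3) in the KO group. On the log2 scale this was a difference of 0.43 (standard error 0.141), with an adjusted p = 0.113 in edgeR's quasi-likelihood test.

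Ackr3 had 44.8, 45.5 and 55.3 CPM in WT and 47.8, 31.1 and 30.8 CPM in KO mice. KO4 fell within the WT range and the other 2 KO mice lay below it. The mean was 48.5 ± 5.88 CPM (SD, n = 3) in the WT group and 36.6 ± 9.74 CPM (SD, n = 3) in the KO group. On the log2 scale this was a difference of -0.41 (standard error 0.181), with an adjusted p = 0.206 in edgeR's quasi-likelihood test. Without KO4 the 2 receptors passed the threshold in opposite directions, Cxcr4 at 0.58 (adjusted p = 0.0178) and Ackr3 at -0.65 (adjusted p = 0.0279), both in the same test.

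The ratio of Cxcr4 to Ackr3 on the CPM scale was 0.901, 0.876 and 0.680 in WT and 0.861, 2.01 and 1.78 in KO mice. In KO5 and KO6 it was thus well above the WT range, and in KO4 it was inside it. Cxcl12, the most abundant ligand of the list, read 255.7 to 328.9 CPM in WT mice and 293.6 to 397.1 CPM in KO mice (log2 fold change 0.29, standard error 0.135, adjusted p = 0.233 in edgeR's quasi-likelihood test). Its ratio to Ackr3 was 4.75 to 7.34 in WT and 8.31 to 11.1 in KO mice, without overlap.

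**Figure D3:**
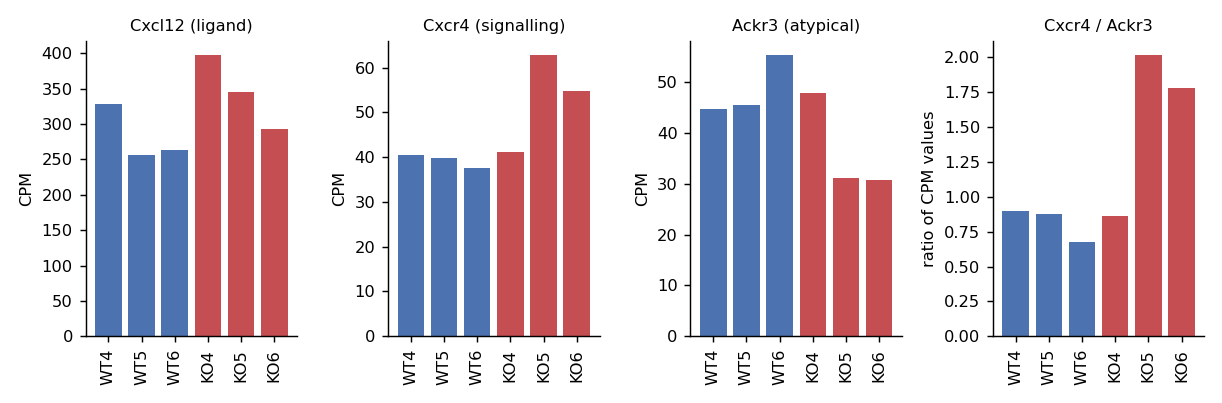
Levels of the ligand Cxcl12, its signalling receptor Cxcr4 and its atypical receptor Ackr3 in CPM, and the ratio of Cxcr4 to Ackr3, with 1 bar per mouse (WT in blue, KO in red). KO4 has a ratio of 0.861, inside the WT range of 0.680 to 0.901, and KO5 and KO6 have 2.01 and 1.78.

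The 8 endothelial genes followed beside Ackr3 were Pecam1, Cdh5, Cldn5, Kdr, Tek, Tie1, Emcn and Egfl7. They summed to 3663 to 3972 CPM in WT mice, against 3756, 3319 and 3442 CPM in the KO mice. Of the 8, only Cldn5, a tight junction protein, was lower in KO mice (log2 fold change -0.31, adjusted p = 0.0362 in edgeR's quasi-likelihood test), and 0 were higher. Of all genes tested, 2.67% passed as lower and 3.72% as higher. Cldn5 lost the call whichever single mouse was dropped. The median log2 fold change of the 8 was -0.10, with 2 positive and 6 negative. At an unadjusted p under 0.05, Emcn was higher (0.27), and 2 were lower (13.9% and 11.6% of all genes). Ackr3 equalled 1.13% to 1.51% of the endothelial sum in WT mice, against 1.27%, 0.938% and 0.894% in the KO mice. Relative to 5 fibroblast genes, whose sum ran from 949.3 to 1153 CPM in WT and from 890.8 to 940.6 CPM in KO mice, it equalled 3.94% to 5.38% in WT mice, against 5.08%, 3.34% and 3.45% in the KO mice. On either scale KO5 and KO6 were below the WT range and KO4 was inside it. None of the 5 fibroblast genes and none of the 7 genes of lung epithelium passed edgeR's quasi-likelihood test, with 1 and 3 of them lower at an unadjusted p under 0.05 (11.6% of all genes). DESeq2 called 1 and 3 genes of these lists as lower (11.2% of all genes in either direction). The part of these cell types in the Ackr3 values was not tested.

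**Figure D4:**
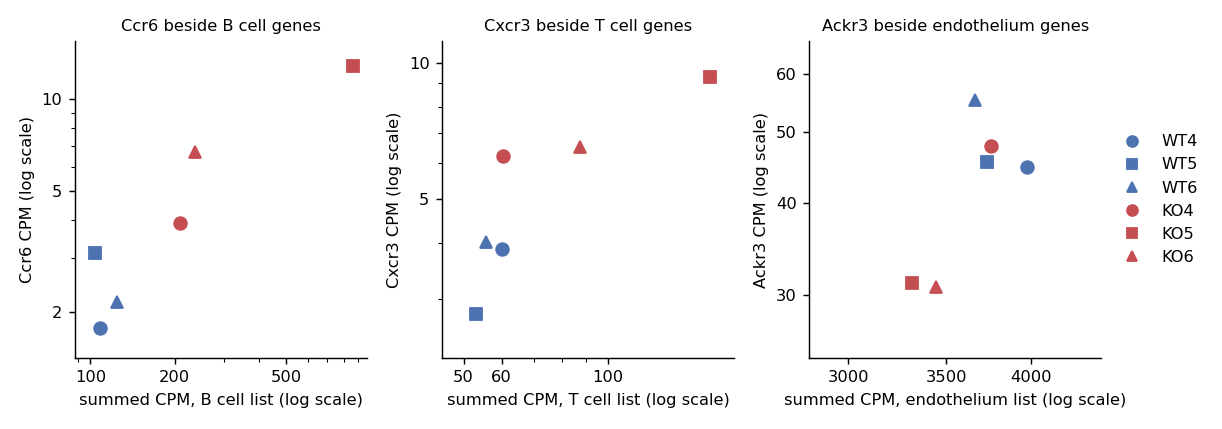
Level of 3 receptors (vertical axis, CPM, log scale) against the summed level of a list of cell type genes (horizontal axis, CPM, log scale), 1 point per mouse. Ccr6 and the B cell list are both highest in KO5 (12.9 and 863 CPM), Cxcr3 in KO4 is above the WT mice at a similar T cell sum, and Ackr3 in KO5 and KO6 is about 31 CPM at the lowest endothelial sums.

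Ackr1, the Duffy receptor, which carries chemokines across venules and binds them on red cells, was the atypical receptor that passed the test. It had 11, 9 and 15 counts in WT and 18, 63 and 25 counts in KO mice, or 0.443, 0.431 and 0.485 CPM against 0.880, 1.32 and 1.23 CPM. Each KO mouse was above each WT mouse, on few reads. The mean was 0.453 ± 0.0284 CPM (SD, n = 3) in the WT group and 1.15 ± 0.234 CPM (SD, n = 3) in the KO group. KO mice exceeded WT mice by 1.34 on the log2 scale (standard error 0.250, adjusted p = 0.0303 in edgeR's quasi-likelihood test). With 9 to 15 counts per WT mouse, the small WT SD is not a reliable measure of the spread between mice. DESeq2 gave the same fold change with a standard error of 0.496, and there Ackr1 did not pass (adjusted p = 0.0548). Without KO4 the adjusted p was 0.0279, and without any 1 of the other 5 mice it lay between 0.0704 and 0.134.

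Of the 7 venous genes (Vwf, Selp, Nr2f2, Lrg1, Slco2a1, Vcam1 and Sele) none passed edgeR's quasi-likelihood test, its exact test or DESeq2 (2 were higher at an unadjusted p under 0.05 in the first), and Ackr1 equalled 0.0265% to 0.0324% of their sum in WT mice, against 0.0415%, 0.0832% and 0.0694% in the KO mice. In the list for high endothelial venules, the vessels through which lymphocytes enter lymphoid tissue, Glycam1 had 0, 2 and 5 counts in WT and 9, 172 and 53 counts in KO mice. Its adjusted p was 0.0407 in edgeR's quasi-likelihood test. However, Glycam1 passed the filter on low counts only through the KO mice, and without KO5 it was not tested. Chst4 and Fut7 of that list did not pass (log2 fold changes -0.57 and 0.87), and Madcam1 had at most 4 counts and was not tested. Chst4 made up 76.2% of the summed CPM of the list. That sum was 6.71 to 13.8 CPM in WT and 8.36 to 12.6 CPM in KO mice. Red cell genes went the other way from Ackr1, with 5 of 7 lower in KO mice, against 2.67% of all genes tested. These 5 were Hba-a1, Hba-a2, Hbb-bs, Hbb-bt and Alas2. Of the 7 red cell genes 0 were higher, and their median log2 fold change was -0.89. Their sum was 2132 to 2281 CPM in WT and 1038 to 1414 CPM in KO mice. The part of these vessel and red cell genes in the Ackr1 result was not tested.

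Ccr6, the receptor of B cells and interleukin-17-producing T cells for Ccl20, had the largest fitted change of the 9 but did not pass the threshold. It had 44, 65 and 67 counts in WT and 80, 613 and 136 counts in KO mice, or 1.77, 3.11 and 2.17 CPM against 3.91, 12.9 and 6.72 CPM. The groups did not overlap, with KO5 highest and KO4 lowest of the KO mice. The log2 fold change was 1.76 (standard error 0.441, adjusted p = 0.0607 in edgeR's quasi-likelihood test). It was 1.18 without KO5 (adjusted p = 0.0766) and 2.08 without KO4 (adjusted p = 0.0285), in the same test.

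The 7 B cell genes (Ms4a1, Cd79a, Cd79b, Pax5, Cd22, Fcmr and Blk) summed to 104 to 124 CPM in WT mice, against 208, 863 and 236 CPM in the KO mice. In edgeR's quasi-likelihood fit of all 6 mice none of the 7 passed, all 7 were higher at an unadjusted p under 0.05 (13.9% of all genes), and the median log2 fold change was 1.91. The call depended on the method and the mice. In the quasi-likelihood fit, 6 passed without KO4 (7.3% of all genes) and all 7 without KO5 (5.48%, median log2 fold change 1.0). In that fit 0 passed without WT4 (1.48% of all genes), without WT5 (0.0057%), without WT6 (0.368%) or without KO6 (0.672%). All 7 passed as higher in edgeR's exact test (8.62% of all genes in either direction) and in DESeq2 (11.2%). Ccr6 equalled 1.63%, 3.0% and 1.75% of the B cell sum in WT and 1.88%, 1.49% and 2.84% in KO mice. Relative to B cell RNA the groups thus overlapped, with KO4 and KO6 inside the WT range and KO5 just below it. Relative to the T cell sum, Ccr6 equalled 2.94%, 5.87% and 3.89% in WT mice, against 6.46%, 7.92% and 7.70% in the KO mice, without overlap. The part of B cells and T cells in the Ccr6 values was not tested. Ccl20 scattered from 0.362 to 1.68 CPM in WT mice and from 0.797 to 4.64 CPM in KO mice, with KO5 lowest of the KO mice (adjusted p = 0.231 in edgeR's quasi-likelihood test).

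Ccr1, a receptor of neutrophils and monocytes for Ccl3, Ccl5, Ccl6 and Ccl9, had the change with the smallest standard error of the 9. It read 8.37, 7.57 and 7.05 CPM in WT and 9.73, 11.7 and 9.09 CPM in KO mice. The groups did not overlap, and the mean went from 7.67 ± 0.666 CPM (SD, n = 3) to 10.2 ± 1.34 CPM (SD, n = 3). The log2 fold change was 0.41 (standard error 0.133, adjusted p = 0.111 in edgeR's quasi-likelihood test), and it stayed above 0.05 in adjusted p in the 13 other fits.

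Of 6 neutrophil genes tested, S100a8, S100a9 and Retnlg were higher in KO mice (log2 fold changes 1.01, 1.12 and 1.29), where 3.72% of all genes were. Csf3r (1.01, adjusted p = 0.0504 in edgeR's quasi-likelihood test), Mmp8 (0.27) and Ngp (-0.34) did not pass, and Ly6g and the granule gene Camp had too few counts to be tested. Ccr1 equalled 9.28% to 13.9% of the neutrophil sum in WT and 6.02% to 8.79% in KO mice, without overlap. Of 8 monocyte genes, 5 were higher in KO mice (Csf1r, Ly6c2, Plac8, F13a1 and Treml4), against the same 3.72% of all genes. Ace (0.01), Fn1 (0.24) and Nr4a1 (-0.02) did not pass. The ligands Ccl5 and Ccl9 were higher as well, at log2 fold changes of 0.89 and 0.77 (adjusted p = 0.0268 and 0.0389 in edgeR's quasi-likelihood test). Ccl6, with over 100 CPM in each mouse, differed by 0.07 and Ccl3 by -0.10, and neither passed. The part of neutrophils and monocytes in the Ccr1 values was not tested.

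Ccr3 is the eotaxin receptor of eosinophils. It had 31, 19 and 28 counts in WT and 13, 210 and 60 counts in KO mice, or 1.25, 0.910 and 0.906 CPM against 0.635, 4.41 and 2.96 CPM. KO4 was below all WT mice and the other 2 KO mice were above them. Its log2 fold change of 1.42 had a standard error of 0.593 (adjusted p = 0.187 in edgeR's quasi-likelihood test). It was 0.81 without KO5 (adjusted p = 0.437) and 1.86 without KO4 (adjusted p = 0.0203, same test).

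Among eosinophil genes, the peroxidase Epx had 0 to 2 counts in each library. Prg2 read 0.725 to 3.80 CPM and Siglecf 9.09 to 17.4 CPM over the 6 mice, and neither passed the test. Siglecf made up 70.8% of the summed CPM of the list. Il5ra read 2.59, 13.2 and 1.78 CPM in the KO mice and 0.767 to 0.966 CPM in WT mice, with KO5 highest as for Ccr3 (adjusted p = 0.0794 in edgeR's quasi-likelihood test). The eotaxin Ccl11 had a log2 fold change of -0.46 and Ccl24 of -0.15 (adjusted p = 0.182 and 0.871 in edgeR's quasi-likelihood test). The part of eosinophils in the Ccr3 values was not tested.

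Ccr9, which brings T cells to the small intestine and thymus through Ccl25, was scarce. It read 1.81, 1.73 and 1.29 CPM in WT and 1.56, 3.0 and 3.31 CPM in KO mice. As with Ccr3, KO4 did not follow the other KO mice, and it lay inside the WT range. Its log2 fold change was 0.72 (standard error 0.301, adjusted p = 0.189 in edgeR's quasi-likelihood test). Ccl25 was at 3.01 to 4.19 CPM over the 6 mice, with a log2 fold change of -0.30 (adjusted p = 0.255 in the same test).

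KO4 thus lay below the WT mice for Ccr3, inside their range for Ccr9 and Ackr3, and above it for Cxcr3, Ccr6, Ccr1, Cxcr4, Cxcr6 and Ackr1. In the fit without KO4, 7 of the 9 receptors passed the threshold (Ccr3, Ccr6, Ccr9, Cxcr3, Cxcr4 and Ackr1 higher, Ackr3 lower), where 7.3% of all genes did. In the quasi-likelihood fit without KO5, 0 of the 9 passed it (5.48% of all genes passed). The same fit also called 0 of the 9 without WT4 (1.48% of all genes passed), without WT5 (0.0057%), without WT6 (0.368%) and without KO6 (0.672%). With another tool or filter, DESeq2 called 3 of the 9 (11.2% of all genes), edgeR's exact test 3 (8.62%), no filter on low counts 3 (4.89%) and a filter of at least 10 counts in every library 1 (7.04%). No receptor changed the sign of its fold change in any of the 13 other fits.

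In both genes of the monocyte pair the KO mice lay above the WT mice without overlap, as did 17% of all genes tested. Ccr2 had 35.6 ± 3.89 CPM (SD, n = 3) in the WT group and 63.3 ± 8.35 CPM (SD, n = 3) in KO mice, and Cx3cr1 had 10.1 to 12.96 CPM in WT and 25.2 to 38.6 CPM in KO mice. Both were higher in KO mice, with log2 fold changes of 0.83 and 1.52 (adjusted p = 0.0176 and 0.0118 in edgeR's quasi-likelihood test). They stayed past the threshold without KO4 and without KO5 and were not past it without WT5 or without WT6. Of the 12 further chemokine receptor genes considered, 10 had enough reads to be tested. Xcr1 (log2 fold change 0.65), a receptor of cross-presenting dendritic cells, was higher in KO mice with 0 lower (3.72% and 2.67% of all genes). At an unadjusted p under 0.05 there were 3 higher and 1 lower (13.9% and 11.6% of all genes). DESeq2 called 2 higher and 1 lower (11.2% of all genes in either direction). Of 7 dendritic cell genes Flt3 alone was higher (log2 fold change 0.76) and Zbtb46 alone lower (-0.35) past the adjusted threshold in edgeR's quasi-likelihood test. Of 8 genes of alveolar macrophages Marco alone passed (1.26). The medians of the 2 lists were 0.32 (5 positive, 2 negative) and 0.21 (7 positive, 1 negative). Of all genes tested, 3.72% passed as higher and 2.67% as lower. Cxcr5, the follicle-homing receptor of B cells, read 5.37 to 6.09 CPM in WT mice, against 8.07, 39.1 and 11.3 CPM in the KO mice (adjusted p = 0.102 in the same test). This is the order of KO mice found for Ccr6, in which KO5 is highest and KO4 lowest.

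Among the 15 ligands of the receptors, 14 were tested, and Ccl5, Ccl8 and Ccl9 were higher in KO mice with 0 lower. Of all genes tested, 3.72% were higher and 2.67% lower at this threshold. The median log2 fold change of the ligands was 0.18. At an unadjusted p under 0.05 there were 5 higher and 1 lower (13.9% and 11.6% of all genes). DESeq2 called 5 higher and 0 lower (11.2% of all genes in either direction). The median was 0.57 without WT6 and 0.12 without WT5, and the quasi-likelihood test called 0 ligands without WT4, without WT5, without WT6 or without KO6. Ccl8, a monocyte chemoattractant, rose most of these 3, from 2.74 ± 1.23 to 10.6 ± 2.53 CPM (SD, n = 3 each), which is 1.94 on the log2 scale (standard error 0.347, adjusted p = 0.0279 in edgeR's quasi-likelihood test). Ccl7 differed by -0.06 on the log2 scale and did not pass.

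Of 29 genes that carry the signal below the receptors, 8 were higher in KO mice and 0 lower (6.39% of all genes tested passed in either direction), with a median log2 fold change of 0.34. The 8 were Rac2 (1.27), Dock2 (1.26), Vav1 (1.10), Was (1.01), Pik3cg (1.0), Ptk2b (0.92), Rgs2 (0.52) and Tiam1 (0.51), each with its log2 fold change. Rac2, Dock2, Vav1 and Was drive the actin cytoskeleton of blood cells, Pik3cg is the catalytic subunit of phosphoinositide 3-kinase gamma, and Rgs2 shortens G protein signals. The subunits Gnai2, Gnai3, Gnb1 and Gnb2 and the arrestins Arrb1 and Arrb2, which cells of all kinds use, did not pass, at fitted log2 fold changes from -0.15 to 0.22. Rac1, the widely expressed counterpart of Rac2, had -0.08, and Rgs18 had 0.01. Grk6 (0.66), Adrbk1 (0.31), Adrbk2 (0.24) and Arrb2 (0.22) did not pass but were higher at an unadjusted p under 0.05 in edgeR's quasi-likelihood test. Gnb1 (-0.15) and Grk5 (-0.13) were lower at that unadjusted threshold. At an unadjusted p under 0.05 there were 16 higher and 2 lower (13.9% and 11.6% of all genes). DESeq2 called 12 higher and 0 lower (11.2% of all genes in either direction). Without KO5 the quasi-likelihood count was again 8, and it was 0 without WT4, without WT5, without WT6 or without KO6. The part of the leukocyte genes described above in these counts was not tested.

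**Figure D5:**
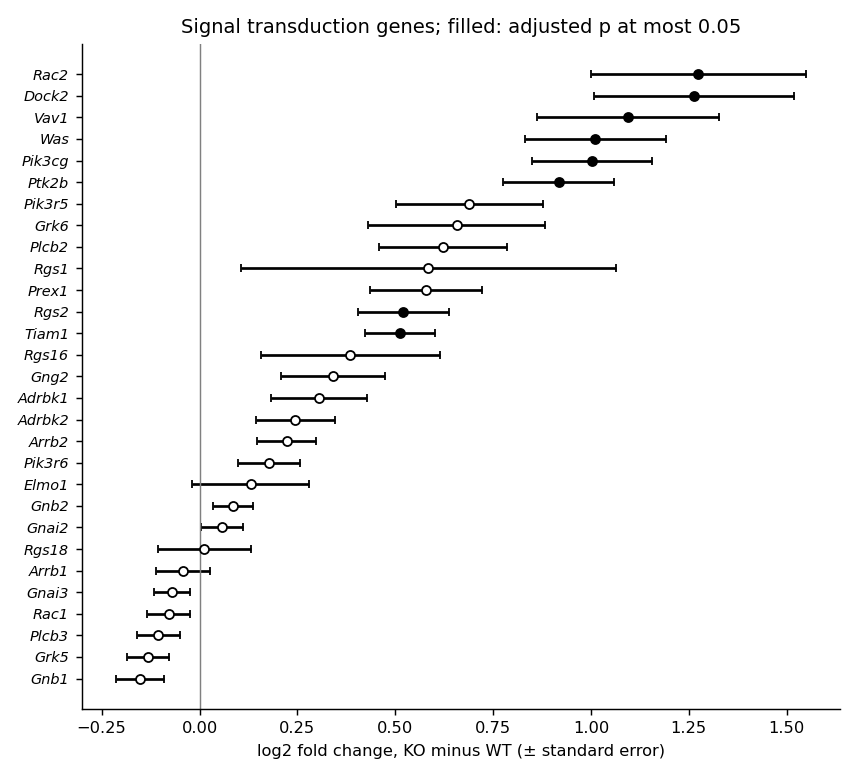
Fitted log2 fold change of KO against WT, with its standard error (bar), for the 29 signal transduction genes, filled where the adjusted p was at most 0.05. The 8 filled genes are all to the right of 0, from 0.51 for Tiam1 to 1.27 for Rac2. Of the open circles, Gnb1 lies at -0.15, Rac1 at -0.08, Gnai2 at 0.06 and Grk6 at 0.66.

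Among 15384 genes with a mean of at least 1 CPM, the profile over the 6 mice most like that of each receptor was sought by the root mean square difference of log2 CPM centred on its own mean. Ccr1 lay nearest to Ppcdc (0.0297, then Phykpl and Tk2), and the near neighbours of Cxcr4 included Cep192 (0.0521) and Gramd3. Cxcr6 lay nearest to H2-Q2 (0.0461, then Wdr27 and Ifi44) and Ackr3 to Ctla2a (0.0640, then Rptoros). Cxcr3 had BC035044, Phf11b and Ncf1 as neighbours (0.0829 for the first), and Ackr1 had Sema4d, Ebi3 and Tnfsf8 (0.0694 for the first). For Ccr9 they were Serpind1, Ptprv and Gm5577 (0.119), for Ccr6 Pacsin1, Fam26f and Krt222 (0.144), and for Ccr3 Igkj5, BC094916 and BC147527 (0.328). Ccr3 and Ccr6 deviated about equally from their own means over the mice (root mean square 0.956 and 0.957), with the looser match for Ccr3.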

How the data were processed

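Lung mRNA of 3 WT and 3 KO mice at ZT10 was sequenced from stranded libraries. According to the labels, the authors used Trimmomatic 0.36, STAR 2.5.3a, Picard 2.9.0 and HTSeq 0.6.0 with GRCm38, and they deposited whole-number counts per gene without normalization. The strand setting and annotation release of the counting are not given in the sources used here. GENCODE mouse release 21 placed 46574 of the 47069 genes, and upstream sequences came from RefSeq (GRCm38.p6), in which all 9 receptors were found.

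KO was tested against WT in R 4.3.3 with edgeR 4.0.16 (glmQLFit and glmQLFTest, TMM scaling, filterByExpr with minimum count 10 and minimum total count 15, no covariates) and Benjamini-Hochberg adjustment over 17037 genes. The standard error is the size of the log2 fold change divided by the square root of F. CPM values use TMM-scaled library sizes. The fit was tested on simulated data. Alternatives were other scalings (DESeq2 size factors, upper quartile), other filters, edgeR's exact test, DESeq2 1.42.0, a replicate block and each mouse left out in turn. Named genes are the receptors, their ligands, called genes of the pathway lists, up to 3 called genes of each cell type list with the lowest adjusted p, and the 3 nearest profiles per receptor. Other list genes are named to say what was summed, or were chosen after their values were seen. A few genes that the lists or the nearest profiles would include are not reported here, and the list sums and counts leave them out. The members and lists were chosen with earlier results of these data known. Python 3.11.15, pandas 2.3.3, SciPy 1.17.1 and Matplotlib 3.10.9 made the tables and figures.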

Additional observations from a re-analysis of the deposited data

How the results depend on the processing

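No receptor changed sign under the 13 alternatives, and 94 of 116 receptor values kept their side of the threshold. Against 1089 genes called, DESeq2 called 1913 and the fits that left out 1 mouse between 1 (without WT5) and 1278. With a log2 fold change of at least 1.5 as well (109 genes), no filter gave 211, edgeR's exact test 203, DESeq2 169 and leaving out 1 mouse 1 to 214. Receptors called (2) numbered 1 with at least 10 counts in every library, which leaves Ackr1 untested, and 0 to 7 without 1 mouse (7 without KO4, 0 without each of the others). DESeq2 called Ccr6, Cxcr3 and Cxcr4, and edgeR's exact test and no filter called Ccr6, Cxcr3 and Ackr1. Ccr6 passed at a log2 fold change of 1.75 under no filter, edgeR's exact test and DESeq2. Cxcr4 passed under DESeq2 (0.43), and Ackr1 did not (1.34). Of the values of 45 other named genes, 411 kept their side, 155 lost the call, 8 gained it and 7 changed sign. The causes were not tested.

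Leaving out 1 mouse gave log2 fold changes of 0.81 to 1.86 for Ccr3, 1.18 to 2.08 for Ccr6, 0.55 to 0.97 for Ccr9, 0.83 to 1.15 for Cxcr3, 0.29 to 0.58 for Cxcr4, 1.20 to 1.48 for Ackr1 and -0.65 to -0.31 for Ackr3. Among the named genes followed singly, the sign changed in ligands that passed in no fit: Ccl3 (-0.54 to 1.05, with 1.05 without WT6 and 0.12 without KO5), Ccl6 (-8.74e-05 without KO6, up to 0.15), Ccl7 (0.028 without WT4, down to -0.17), Ccl24 (0.14 without KO4, down to -0.94) and Cxcl16 (0.042 without KO5, down to -0.093).

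Replicate numbers 4 to 6 did not pair the mice: deviations from the group means correlated at -0.032, -0.154 and -0.021 over 17037 genes between mice of the same number, and no mouse correlated best with its own number. With the replicate block, 66 genes were called, 14 of them also past 1.5, and 0 receptors. Log2 fold changes in that fit were 1.04 for Cxcr3, 1.32 for Ackr1 and 0.24 for Ccl3.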
